A study of Homo sapiens with 12 samples.

Results

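The genes of cholesterol and fatty acid synthesis were examined in LNCaP cells depleted of BRG1. The genes were listed by their known roles, with earlier results of these data known, and were found in the expression table through their Ensembl identifiers. Of 35 genes listed, 34 were found among the 63568 genes of the table. The gene ACACA was not matched and was not analysed here. The 34 genes comprised 18 genes of the sterol branch, 9 genes of the fatty acid branch, 5 genes of SREBP control and 2 genes of sterol precursor supply and sterol transport.

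LNCaP is an androgen-sensitive human prostate cancer cell line that came from a lymph node metastasis, and BRG1, encoded by SMARCA4, is an ATPase of the SWI/SNF chromatin remodelling complex. Poly(A) RNA was sequenced in 12 libraries, with expression given as TPM, a share of all transcripts in a library that is corrected for transcript length. The si-NT cells received a pool of non-targeting siRNAs and the BRG1 depleted cells received 1 of the SMARCA4 siRNAs, which the table numbers 2 and 3. At each of 72 h and 144 h there were 2 si-NT libraries and 4 BRG1 depleted libraries, 2 for each siRNA. All cells were transfected 24 h after seeding, and those of the 144 h groups, controls included, were split and transfected again at 72 h. The libraries of a group carry replicate numbers but nothing in the labels says whether they came from separate cultures, so that the p-values measure only the spread between these libraries. The sample titles number the siRNAs 1 and 2, so that siRNA 2 of the table need not be siRNA 2 of the titles. For 1 siRNA library at 72 h the fields of its label also give different siRNA numbers. The siRNA numbers of the table are therefore used as names only. All the data come from 1 cell line.

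Cholesterol is built from acetyl-CoA through mevalonate, the isoprenoid farnesyl diphosphate and squalene, and fatty acids are built from acetyl-CoA by fatty acid synthase and then elongated and desaturated. Both branches share a transcriptional control, the SREBP factors, which are held in the endoplasmic reticulum by SCAP and the INSIG proteins when sterols are plentiful and are carried to the Golgi and cleaved when sterols are scarce. In prostate cells androgens stimulate lipid synthesis, and prostate tumours are known for a high expression of fatty acid synthase.

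SMARCA4 transcripts were lower in every BRG1 depleted library. The si-NT cells had 73.4 to 97.0 TPM at 72 h and 94.5 to 107 TPM at 144 h, against 17.5 to 21.7 TPM and 11.4 to 17.4 TPM in the BRG1 depleted cells, a decrease of 77.3% and 84.9%. All 10 luminal prostate markers were present (31.8 to 597 TPM), and at 144 h 3 of them rose and none fell (median log2 fold change 0.14). Of all genes tested 13.6% rose and 10.8% fell at 144 h. KLK2, a kallikrein, had all BRG1 depleted libraries below both controls at both times without passing the test, with 339 and 333 TPM in the si-NT cells and 58.2 to 223 TPM in the BRG1 depleted cells at 72 h (log2 fold change −1.53 ± 0.48, adjusted p = 0.151) and with 341 and 143 TPM and 75.1 to 124 TPM at 144 h (−1.18 ± 0.48, adjusted p = 0.0937). Of 10 markers of stroma, blood, endothelium and basal epithelium 9 stayed under 1 TPM in every library, COL1A2 at 0 throughout, and the collagen gene COL1A1 was at 3.10 to 9.11 TPM. The libraries held 14706 to 15355 genes at 1 TPM or more, and the number of reads was not given with the TPM values. Spiked-in control RNA (ERCC) took 0.805% to 1.97% of the TPM, and its highest share was in siRNA 3 replicate 2 at 144 h. Of 10 proliferation markers, 0 passed the test at 72 h (limma, 1 with an unadjusted p under 0.05) and 9 were lower at 144 h (median log2 fold change of the 10 markers −0.95), with a summed level of 1183 to 1364 TPM in the si-NT cells and 710 to 939 TPM in the BRG1 depleted cells at 144 h. The part of this change in the values of the lipid genes was not tested. In these bulk RNA samples a change in the make-up of the culture and a change in RNA per cell cannot be told apart.

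All 34 genes passed the filter on low values, and their mean level over the 12 libraries ran from 13.8 TPM (NSDHL) to 826 TPM (FASN) with a median of 53.8 TPM. At 144 h, 11 of the 34 genes differed between BRG1 depleted and si-NT cells, 7 higher and 4 lower (limma, Benjamini-Hochberg adjusted p under 0.05). Those that rose were TM7SF2, INSIG2, SC5D, STARD4, ACSS2, LSS and NSDHL, and those that fell were ELOVL6, ME1, INSIG1 and FDFT1. The share of 32.4% stands beside 24.4% of the 16337 genes tested (13.6% higher and 10.8% lower). None of the 34 genes passed the test with a log2 fold change beyond 1.5, against 1.1% of all genes. At 72 h only SC5D passed the test (2.94% of the genes, beside 1.68% of all genes), and 10 of the 34 had an unadjusted p under 0.05 (29.4%, beside 14.3% of all genes). The median log2 fold change of the 34 genes was 0.12 at 72 h and −0.01 at 144 h, and that of all genes was 0.06 and 0.03. The si-NT libraries bore strongly on the count at 144 h, which fell to 6 without si-NT replicate 1 and to 2, SC5D and ME1, without si-NT replicate 2. Calls over all genes also fell without either of these libraries, so the drop is not particular to the 34 genes. Each of these fits keeps only the other control of 144 h. With median-of-ratios scaling 8 genes were lower and 6 higher, beside 4363 of the 16337 genes called. Scaling on the ERCC controls moved the median of all genes at 144 h to −0.31. With it 2 of the 34 genes were lower and none was higher, beside 752 of the 16337 genes called, against 3983 in the main fit.

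**Figure D1:**
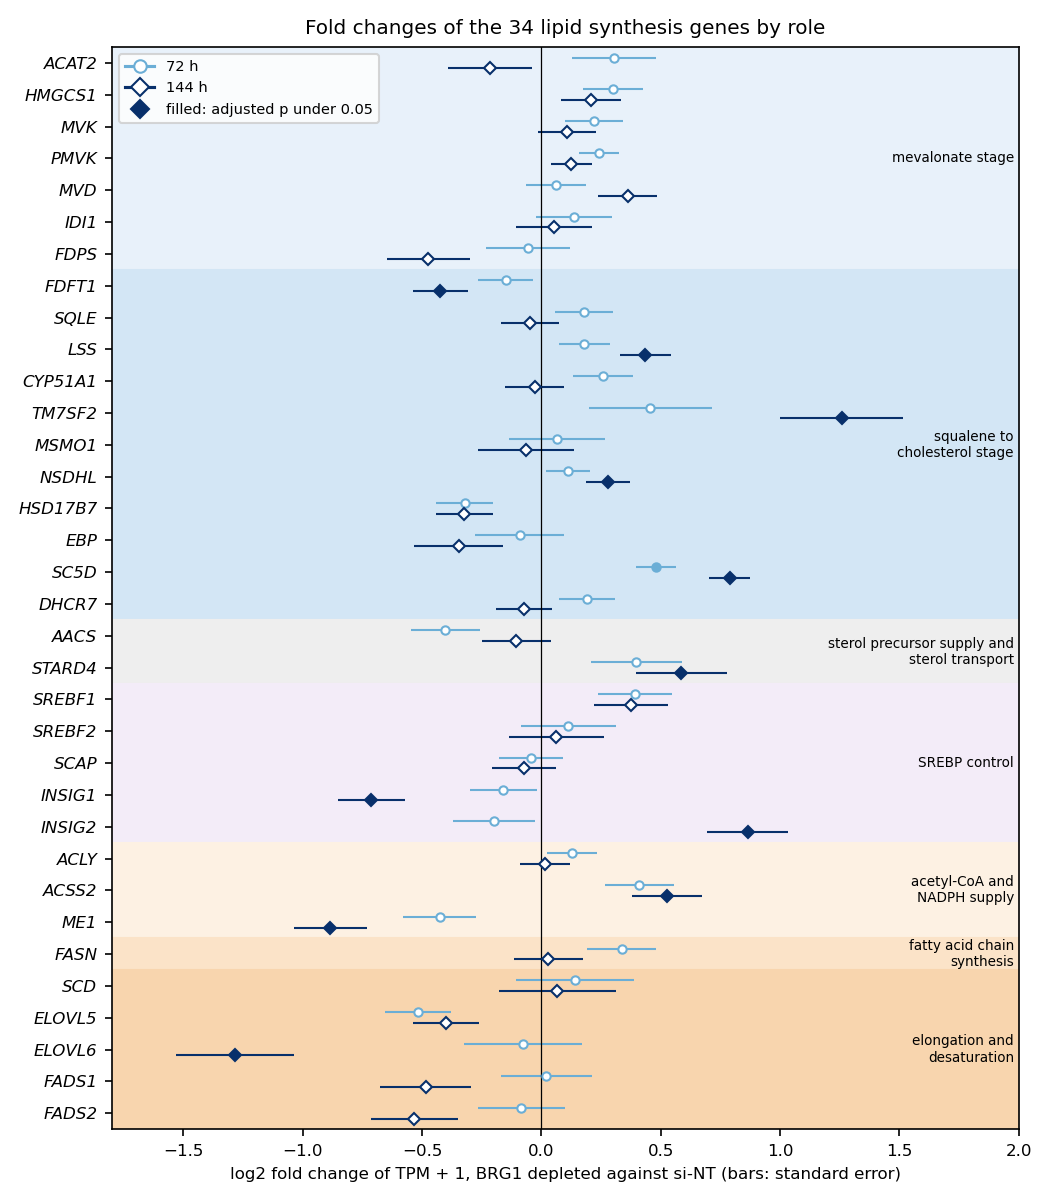
Log2 fold change (TPM + 1) of each of the 34 genes in BRG1 depleted against si-NT cells at 72 h (circles) and 144 h (diamonds), grouped by role, with bars for the standard error and filled symbols for an adjusted p under 0.05. At 144 h TM7SF2 lies farthest to the right (1.26) and ELOVL6 farthest to the left (−1.28).

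The promoters of the genes with the largest rise and the largest fall, TM7SF2 and ELOVL6, and of SREBF2, the one gene with a sterol regulatory element core among the 30 with a promoter window, are shown because they carry the extremes of the response and the best known SREBP motif, and they were chosen after the values were seen. Each line gives the 250 bases before a RefSeq transcription start (GRCh38.p14), read 5′ to 3′ on the strand of the gene, with matches to the sterol element core TCACNCCAC and to the NF-Y box CCAAT, on either strand, in capitals. TM7SF2 is shown from chr11:65111622-65111871 (plus strand), ELOVL6 from chr4:110198616-110198865 (minus strand) and SREBF2 from chr22:41832855-41833104 (plus strand).
TM7SF2: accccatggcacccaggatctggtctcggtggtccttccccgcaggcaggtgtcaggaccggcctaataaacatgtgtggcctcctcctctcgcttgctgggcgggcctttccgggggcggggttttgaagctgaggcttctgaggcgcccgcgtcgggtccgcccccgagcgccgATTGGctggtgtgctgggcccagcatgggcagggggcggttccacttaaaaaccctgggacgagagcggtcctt
ELOVL6: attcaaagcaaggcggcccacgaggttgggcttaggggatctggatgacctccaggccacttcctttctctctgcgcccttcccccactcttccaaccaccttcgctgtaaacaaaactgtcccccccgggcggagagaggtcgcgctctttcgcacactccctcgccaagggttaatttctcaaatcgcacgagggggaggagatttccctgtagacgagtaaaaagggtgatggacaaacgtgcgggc
SREBF2: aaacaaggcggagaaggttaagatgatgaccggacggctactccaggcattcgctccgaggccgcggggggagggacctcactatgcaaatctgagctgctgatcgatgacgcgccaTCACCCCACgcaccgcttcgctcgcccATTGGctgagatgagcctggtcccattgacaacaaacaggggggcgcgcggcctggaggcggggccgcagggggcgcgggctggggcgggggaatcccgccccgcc
The TM7SF2 stretch holds 1 NF-Y box that begins 74 bases before the start, that of ELOVL6 holds neither motif, and that of SREBF2 holds the sterol element core 133 bases and an NF-Y box 106 bases before the start. A match is a description of the letters and says nothing of binding. Only exact matches within the promoter windows were sought. A missing match therefore does not show that a gene lacks the element, as looser forms and other regions were not searched.

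RefSeq promoter windows of 300 bases, 250 before to 50 after a start, were matched by symbol for 30 of the 34 genes, which gave 39 windows, and no entry was matched for ACAT2, FDFT1, SQLE and FASN. The NF-Y box CCAAT stood on either strand in 61.5% of these windows, beside 34.6% of all 35116 windows, and in 75.0% of the 20 sterol branch windows and 54.5% of the 11 fatty acid branch windows. The Sp1 box GGGCGG was in 89.7%, beside 45.0% of all windows. The E-box CANNTG was in 56.4%, beside 68.7%, and the sterol element core TCACNCCAC in 1 window (2.56%), beside 1.13%. A CCAAT match and an E-box match can share bases, and each motif was counted on its own. Windows of 1 gene can overlap, since 8 genes have several. All windows together belong to 27305 genes, more than the 16337 that passed the filter on low values, which all 34 genes did. No comparison was made with windows matched for expression or base content, so whether the shares are particular to lipid genes was not tested.

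**Figure D2:**
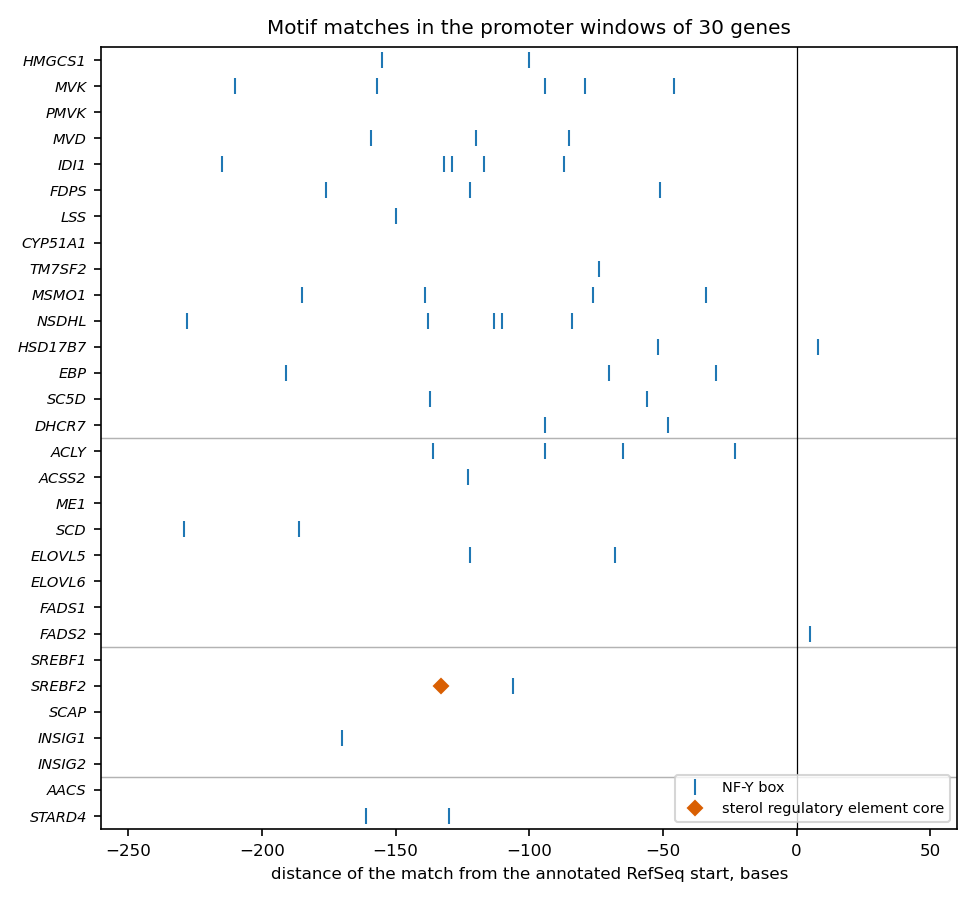
Positions of the NF-Y box (ticks) and the sterol regulatory element core (diamond) in the promoter windows of 30 genes, in bases from the RefSeq start of each window, with each gene in a row and lines between the sterol branch, the fatty acid branch, SREBP control and the remaining genes. The single exact match to the sterol element core is that of SREBF2, 133 bases before its start.

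No gene of the mevalonate stage, which leads from acetyl-CoA to farnesyl diphosphate, passed the test at either time in the main fit (limma, 2 of 7 genes with an unadjusted p under 0.05 at each time, beside 14.3% of all genes at 72 h and 36.8% at 144 h). The median log2 fold change of its 7 genes was 0.22 at 72 h and 0.11 at 144 h. HMGCS1, the synthase that makes HMG-CoA, was at 35.7 and 36.9 TPM in the si-NT cells at 72 h and at 44.4, 50.3, 42.6 and 42.9 TPM in the BRG1 depleted cells. By 144 h it was at 36.7 and 40.5 TPM in the si-NT cells and at 52.1, 44.6, 46.7 and 36.7 TPM in the BRG1 depleted cells. The groups were apart at 72 h and overlapped at 144 h, with log2 fold changes of 0.30 ± 0.13 (SE, adjusted p = 0.295) and 0.21 ± 0.13 (adjusted p = 0.26). MVK and PMVK, the kinases that phosphorylate mevalonate and phosphomevalonate, also had all BRG1 depleted libraries above both si-NT libraries at 72 h, with log2 fold changes of 0.22 and 0.24. FDPS, the synthase of farnesyl diphosphate, was at 275 and 320 TPM in the si-NT cells at 144 h and at 243, 261, 189 and 173 TPM in the BRG1 depleted cells (log2 fold change −0.47 ± 0.17, adjusted p = 0.0687). MVD, the decarboxylase before it, had a value of the other sign, 0.36 ± 0.12 (adjusted p = 0.0543), with the groups apart. In a fit with the siRNAs as separate groups (6 groups) FDPS and MVD passed at 144 h (limma, adjusted p = 0.0192 and 0.0285). In that fit 4439 of the 16337 genes tested were called. ACAT2, which makes acetoacetyl-CoA, and IDI1, the isomerase of isopentenyl diphosphate, had log2 fold changes of −0.22 and 0.05 at 144 h. ACAT2 shares exonic bases with TCP1 on the other strand (484 TPM). The log2 fold changes of TCP1 were 0.32 at 72 h and −0.24 at 144 h, beside 0.30 and −0.22 for ACAT2. The strand setting of the counting was not given, and the part of TCP1 reads in the ACAT2 values was not tested. In all, 7 of the 34 genes share exonic bases with a gene on the other strand.

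Between squalene and cholesterol, 4 of 11 genes rose and 1 fell at 144 h (45.5% called, beside 24.4% of all genes). The largest rise was in TM7SF2 (ENSG00000149809.10, chromosome 11, 64879317 to 64883856, plus strand, hg19), a sterol reductase that acts on the double bond left after the lanosterol demethylation. TM7SF2 was at 73.8 and 115 TPM in the si-NT cells at 72 h and at 131, 182, 111 and 96.9 TPM in the BRG1 depleted cells. At 144 h it was at 96.0 and 90.5 TPM in the si-NT cells, at 276 and 267 TPM with siRNA 2 and at 173 and 198 TPM with siRNA 3. The groups overlapped at 72 h, while at 144 h every BRG1 depleted library was above every si-NT library, with a mean of 229 ± 50.8 TPM (SD, n = 4) against 93.2 ± 3.91 TPM (SD, n = 2). The log2 fold change at 144 h was 1.26 ± 0.26 (SE, adjusted p = 0.00561), that is 2.45-fold. The call was lost without si-NT replicate 2 of 144 h (adjusted p = 0.0632). TM7SF2 shares exonic bases on the same strand with VPS51 (81.6 TPM), a gene whose log2 fold change was 0.28 (adjusted p = 0.181), so its value depends in part on how reads of the shared bases were counted.

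SC5D (chromosome 11, 121163390 to 121184119, plus strand), the desaturase of a late step of the pathway, was the gene that rose at both times. It was at 34.4 and 34.4 TPM in the si-NT cells at 72 h and at 47.4, 49.7, 46.8 and 49.7 TPM in the BRG1 depleted cells. By 144 h SC5D was at 32.6 and 36.5 TPM in the si-NT cells and at 64.8, 58.2, 62.2 and 56.6 TPM in the BRG1 depleted cells. The libraries of both siRNAs lay close together and apart from the controls. The log2 fold change was 0.48 ± 0.08 (adjusted p = 0.0206) at 72 h, or 1.41-fold, and 0.79 ± 0.08 (adjusted p = 0.000162) at 144 h, or 1.75-fold. The call at 144 h held without any 1 library. That at 72 h was lost without si-NT replicate 1 of 72 h (adjusted p = 0.114), si-NT replicate 2 of 72 h (0.121) or siRNA 3 replicate 2 of 72 h (0.0605).

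LSS, the cyclase that makes lanosterol, and NSDHL, a dehydrogenase that removes methyl groups from it, rose by less. LSS was at 34.1 and 34.4 TPM in the si-NT cells at 144 h and at 47.2, 52.0, 44.8 and 42.9 TPM in the BRG1 depleted cells (log2 fold change 0.44 ± 0.11, adjusted p = 0.0129). NSDHL was at 12.5 and 12.1 TPM and at 14.9, 15.5, 14.5 and 15.6 TPM (log2 fold change 0.28 ± 0.09, adjusted p = 0.0445). Both genes had the groups apart at 144 h and overlapping at 72 h. The call of NSDHL held in 4 of the 12 fits that each left out 1 library, and that of LSS was lost without either si-NT library of 144 h.

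FDFT1, the squalene synthase that commits farnesyl diphosphate to sterols, fell. It was at 344 and 352 TPM in the si-NT cells at 144 h, at 290 and 288 TPM with siRNA 2 and at 251 and 215 TPM with siRNA 3. All BRG1 depleted libraries were below the controls at 144 h, and so they were at 72 h, where the si-NT cells had 325 and 284 TPM and the BRG1 depleted cells 266 to 280 TPM. The log2 fold change was −0.15 ± 0.12 (adjusted p = 0.615) at 72 h and −0.42 ± 0.12 (adjusted p = 0.0215) at 144 h, a 25.0% lower mean, and the call was lost without either si-NT library of 144 h.

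The remaining 6 genes of this stage did not pass the test. SQLE, the epoxidase that turns squalene into its epoxide, was at 23.3 and 28.0 TPM in the si-NT cells at 144 h and at 23.1, 24.5, 28.0 and 23.5 TPM in the BRG1 depleted cells. Its groups overlapped at both times, with log2 fold changes of 0.18 ± 0.12 (adjusted p = 0.56) and −0.05 ± 0.12 (adjusted p = 0.814, 95% interval −0.31 to 0.22). The lanosterol demethylase CYP51A1, the methylsterol oxidase MSMO1 and DHCR7, the reductase of the last step, had log2 fold changes of −0.03, −0.07 and −0.07 at 144 h. HSD17B7, a sterol ketone reductase, and EBP, a sterol isomerase, were at −0.32 (adjusted p = 0.0699) and −0.35 (adjusted p = 0.202). For CYP51A1 and DHCR7 all BRG1 depleted libraries were above both controls at 72 h, with log2 fold changes of 0.26 and 0.19.

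STARD4, a soluble protein that carries sterol between membranes, rose at 144 h. It was at 11.9 and 14.1 TPM in the si-NT cells and at 20.6, 23.7, 20.0 and 16.2 TPM in the BRG1 depleted cells, without overlap (log2 fold change 0.59 ± 0.19, adjusted p = 0.0421). At 72 h its groups overlapped, with 11.6 and 17.3 TPM against 15.5 to 22.1 TPM. Its call held in 5 of the 12 fits that left out 1 library. AACS, which makes acetoacetyl-CoA from ketone bodies, had log2 fold changes of −0.40 ± 0.15 (adjusted p = 0.215) at 72 h, with the groups apart, and −0.11 at 144 h.

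Among the genes of SREBP control the 2 INSIG genes moved in opposite directions at 144 h. INSIG1 (chromosome 7, 155089486 to 155101945, plus strand), an endoplasmic reticulum anchor that is itself an SREBP target, was at 84.7 and 103 TPM in the si-NT cells at 144 h and at 58.5, 69.2, 56.5 and 44.9 TPM in the BRG1 depleted cells. INSIG2 (chromosome 2, 118846028 to 118868573, plus strand), the related anchor, was at 29.6 and 28.3 TPM and at 61.7, 46.0, 46.3 and 62.3 TPM. In both genes the groups were apart, INSIG1 with all BRG1 depleted libraries below the controls and INSIG2 with all above. INSIG1 fell by 0.71 on the log2 scale (SE 0.14, adjusted p = 0.00449), a 39.0% lower mean, and INSIG2 rose by 0.86 (SE 0.17, adjusted p = 0.00467), or 1.87-fold. Both calls were lost without si-NT replicate 2 of 144 h (adjusted p = 0.0818 for INSIG1 and 0.0585 for INSIG2). At 72 h INSIG2 was at 35.4 and 45.6 TPM in the si-NT cells and at 31.8, 44.0, 32.2 and 33.2 TPM in the BRG1 depleted cells, with a log2 fold change of −0.20 ± 0.17 (adjusted p = 0.667). INSIG1 was at 73.5 and 76.1 TPM and at 64.7, 69.1, 64.4 and 69.1 TPM at 72 h, with the groups apart and a log2 fold change of −0.16 ± 0.14 (adjusted p = 0.671).

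The SREBP genes themselves and SCAP did not pass the test. SREBF1, whose product is the factor most tied to fatty acid synthesis, was at 269 and 282 TPM in the si-NT cells at 72 h and at 344, 413, 382 and 315 TPM in the BRG1 depleted cells. At 144 h it was at 268 and 262 TPM in the si-NT cells and at 349, 413, 370 and 264 TPM in the BRG1 depleted cells. The groups were apart at 72 h and overlapped at 144 h through siRNA 3 replicate 2 alone, with log2 fold changes of 0.39 ± 0.15 (adjusted p = 0.262) and 0.38 ± 0.15 (adjusted p = 0.0997). SREBF2, whose product is the factor most tied to cholesterol synthesis and whose promoter holds the sterol element core, was at 58.7 and 56.0 TPM in the si-NT cells at 144 h, at 72.2 and 74.6 TPM with siRNA 2 and at 53.9 and 44.4 TPM with siRNA 3. The siRNAs thus lay on either side of the controls, and the log2 fold change was 0.06 ± 0.20 (adjusted p = 0.849, 95% interval −0.37 to 0.50). SCAP, the escort of the SREBPs, was at 37.8 and 36.5 TPM in the si-NT cells at 144 h and at 37.9, 42.6, 32.6 and 29.4 TPM in the BRG1 depleted cells (log2 fold change −0.07 ± 0.13, adjusted p = 0.736).

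The genes that supply fatty acid synthesis with acetyl-CoA and NADPH differed from each other. ACSS2, which makes acetyl-CoA from acetate, rose, from 37.2 and 39.7 TPM in the si-NT cells at 144 h to 65.4 and 65.1 TPM with siRNA 2 and 45.1 and 50.3 TPM with siRNA 3. ME1 (chromosome 6, 83920121 to 84140770, minus strand), the malic enzyme that makes NADPH, fell, from 64.1 and 74.1 TPM to 48.5 and 36.8 TPM with siRNA 2 and 33.0 and 31.4 TPM with siRNA 3. In both genes the groups were apart at 144 h, and they were apart in the same direction at 72 h. At 72 h ACSS2 was at 39.7 and 36.9 TPM in the si-NT cells and at 45.6 to 55.0 TPM in the BRG1 depleted cells, and ME1 at 73.3 and 66.2 TPM and at 46.4 to 54.7 TPM. The log2 fold changes of ACSS2 were 0.41 ± 0.15 (adjusted p = 0.206) and 0.53 ± 0.15 (adjusted p = 0.023). Those of ME1 were −0.43 ± 0.15 (adjusted p = 0.208) and −0.88 ± 0.15 (adjusted p = 0.00222), with a 45.9% lower mean at 144 h. The call of ME1 at 144 h held without any 1 library, and that of ACSS2 was lost in 3 of the 12 fits, without either si-NT library or siRNA 2 replicate 1 of 144 h. ACLY, which makes acetyl-CoA from citrate, had log2 fold changes of 0.13 and 0.01.

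FASN, the fatty acid synthase, was the most abundant of the 34 genes. It was at 779 and 671 TPM in the si-NT cells at 72 h and at 948, 1008, 865 and 841 TPM in the BRG1 depleted cells. By 144 h FASN was at 736 and 833 TPM in the si-NT cells, at 812 and 1003 TPM with siRNA 2 and at 744 and 671 TPM with siRNA 3. The groups were apart at 72 h and overlapped at 144 h. The log2 fold change was 0.34 ± 0.14 (adjusted p = 0.31) at 72 h and 0.03 ± 0.14 (adjusted p = 0.91, 95% interval −0.29 to 0.34) at 144 h.

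Of the 5 genes of elongation and desaturation 1 fell and 4 did not pass the test at 144 h in the main fit (20% called, beside 24.4% of all genes). Their median log2 fold change was −0.48. ELOVL6 (ENSG00000170522.5, chromosome 4, 110967002 to 111120355, minus strand), which lengthens palmitate to stearate, was at 41.8 and 58.2 TPM in the si-NT cells at 144 h, at 23.6 and 26.9 TPM with siRNA 2 and at 18.1 and 12.9 TPM with siRNA 3. At 72 h it was at 37.7 and 30.5 TPM in the si-NT cells and at 34.6, 34.0, 34.7 and 26.1 TPM in the BRG1 depleted cells. The groups overlapped at 72 h and were apart at 144 h, with the lowest values under siRNA 3. The log2 fold change was −0.08 ± 0.25 (adjusted p = 0.926) at 72 h and −1.28 ± 0.25 (adjusted p = 0.00389) at 144 h, where the mean was 59.2% lower. This call was lost without si-NT replicate 2 of 144 h, the library with the higher control value (adjusted p = 0.0714, log2 fold change −1.05).

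ELOVL5, FADS1 and FADS2, which elongate and desaturate polyunsaturated fatty acids, had all BRG1 depleted libraries below both controls at 144 h without passing the test. FADS2 was at 575 and 629 TPM in the si-NT cells at 144 h and at 409, 532, 441 and 310 TPM in the BRG1 depleted cells (log2 fold change −0.53 ± 0.18, adjusted p = 0.053). FADS1 was at 49.7 and 49.5 TPM and at 39.1, 44.9, 35.7 and 24.2 TPM (−0.48 ± 0.19, adjusted p = 0.0865). ELOVL5 had log2 fold changes of −0.52 ± 0.14 (adjusted p = 0.102) at 72 h and −0.40 ± 0.14 (adjusted p = 0.0568) at 144 h. With median-of-ratios scaling ELOVL5, FADS1 and FADS2 passed at 144 h (beside 4363 of 16337 genes), and ELOVL5 also at 72 h (beside 285). In the fit with 6 groups ELOVL5, FADS1 and FADS2 also passed at 144 h (limma, adjusted p = 0.0461, 0.0386 and 0.0388). There 4439 of the 16337 genes tested were called. SCD, the desaturase that makes oleate, had overlapping groups at both times. It was at 213 and 249 TPM in the si-NT cells at 144 h and at 265, 273, 271 and 172 TPM in the BRG1 depleted cells, with a log2 fold change of 0.07 ± 0.25 (adjusted p = 0.871, 95% interval −0.47 to 0.61). At 72 h SCD was at 194 and 254 TPM and at 208, 367, 227 and 208 TPM (0.14 ± 0.25, adjusted p = 0.857). FADS2 shares exonic bases with FEN1 on the same strand (56.1 TPM, log2 fold change −0.73 at 144 h, adjusted p = 0.0436) and with FADS1 on the other strand, and the strand setting of the counting was not given, so that reads of shared bases may have been counted to either gene.

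**Figure D3:**
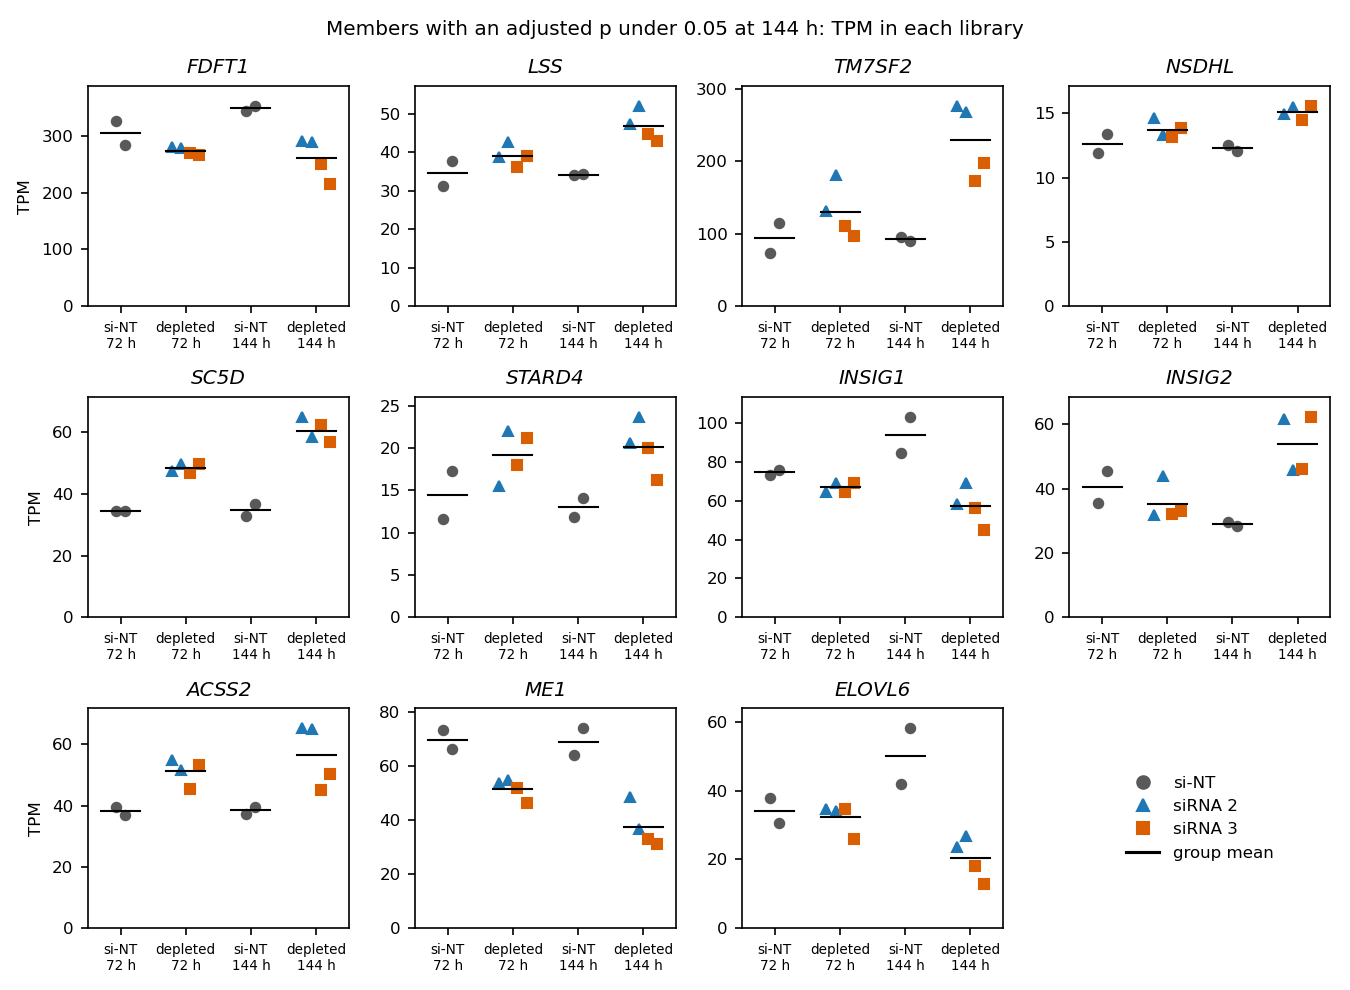
TPM in each library for the 11 genes called at 144 h, with circles for si-NT, triangles for siRNA 2, squares for siRNA 3 and a line for the group mean. In all 11 panels the 4 BRG1 depleted libraries at 144 h lie on one side of the 2 si-NT libraries. These 11 genes were chosen by the test of the same contrast, and 48.6% of all genes tested had groups apart at 144 h.

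Groups that did not overlap were counted over all 34 genes. At 72 h they numbered 14 (9 higher and 5 lower), or 41.2%, beside 23.3% of all genes (16.3% higher and 6.93% lower). At 144 h they numbered 18 (8 higher and 10 lower), or 52.9%, beside 48.6% of all genes (26.1% higher and 22.5% lower).

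The sterol and fatty acid branches were set side by side. At 72 h the median log2 fold change was 0.18 over the 18 sterol genes and 0.02 over the 9 fatty acid genes. At 144 h it was 0.01 over the sterol genes, of which 4 rose and 1 fell, and −0.40 over the fatty acid genes, of which 1 rose and 2 fell. The shares called were 27.8% of the sterol genes and 33.3% of the fatty acid genes, beside 24.4% of all genes. The median of all genes was 0.06 at 72 h and 0.03 at 144 h. The median of the sterol branch thus lay 0.41 above that of the fatty acid branch at 144 h, beside 0.16 at 72 h. This distance was 0.13 without si-NT replicate 1 of 144 h, 0.61 without si-NT replicate 2 of 144 h, and 0.16 when TM7SF2 and ELOVL6, the genes with the largest changes, were left out, an alternative chosen after the data were seen. No test was made of these medians.

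The mean log2(TPM + 1) of each branch in each library gave the same comparison without fold changes. The fatty acid mean was above the sterol mean by 1.30 to 1.33 in the 4 si-NT libraries of both times. In the BRG1 depleted libraries it was above by 1.04 to 1.32 at 72 h and by 0.68 to 1.02 at 144 h. At 144 h the groups did not overlap, and at 72 h 1 BRG1 depleted library, siRNA 2 replicate 2, lay within the control range. The sterol mean itself ran from 5.73 to 5.84 in the si-NT cells at 144 h and from 5.76 to 5.98 in the BRG1 depleted cells, and the fatty acid mean from 7.04 to 7.15 and from 6.44 to 7.00. Without TM7SF2 and ELOVL6 the distance between the branches was 1.51 to 1.57 in the si-NT cells and 1.12 to 1.42 in the BRG1 depleted cells at 144 h. The lowest fatty acid mean and the smallest distance were those of siRNA 3 replicate 2 at 144 h, which also had the highest share of ERCC controls, and the part of this in the values was not tested.

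**Figure D4:**
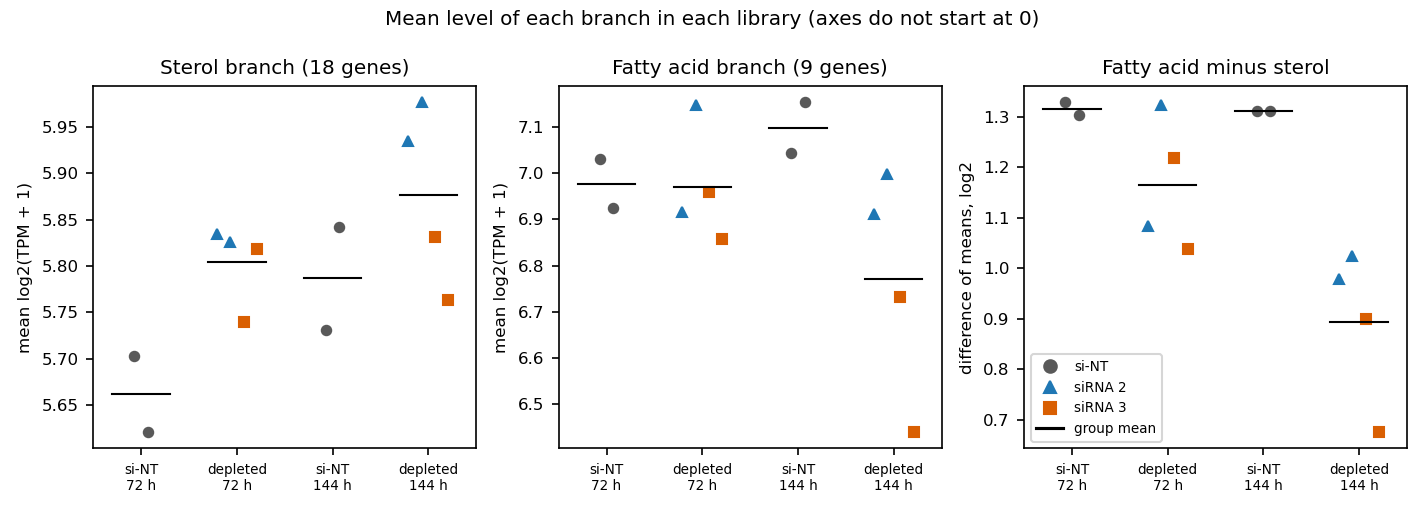
Mean log2(TPM + 1) of the 18 sterol genes, of the 9 fatty acid genes and the difference of these means in each of the 12 libraries, by group, with a line for the group mean and vertical axes that do not start at 0. The difference lies between 1.30 and 1.33 in the si-NT libraries and between 0.68 and 1.02 in the BRG1 depleted libraries at 144 h.

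The fold changes at 144 h and 72 h were compared with each other in the same model. No gene of the list passed this test of the difference (3 of 16337 genes did, 0.0184%), and 4 of the 34 had an unadjusted p under 0.05 (11.8%, beside 11.9% of all genes, which is no more than the background). For these 4 the difference (144 h minus 72 h) was 1.06 on the log2 scale for INSIG2 (adjusted p = 0.223), −1.21 for ELOVL6 (adjusted p = 0.277), −0.55 for INSIG1 (adjusted p = 0.34) and 0.31 for SC5D (adjusted p = 0.357). In the si-NT cells no gene of the list differed between 144 h and 72 h (limma, 1 of 34 with an unadjusted p under 0.05, beside 4.11% of all genes, of which none passed the adjusted test). That gene was INSIG2, which had a mean of 40.5 TPM at 72 h and 28.9 TPM at 144 h in the si-NT cells (log2 difference −0.46, adjusted p = 0.974). The controls of ELOVL6 were at a mean of 34.1 TPM and 50.0 TPM (log2 difference 0.53, adjusted p = 0.974). The level of the controls therefore entered the differences of both genes.

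The SMARCA4 siRNAs were compared in a model with 6 groups. None of the 34 genes differed between siRNA 3 and siRNA 2 at 144 h after adjustment (54 of all genes did, 0.331%), and 15 had an unadjusted p under 0.05 (44.1%, beside 13.3% of all genes). At 72 h 2 had an unadjusted p under 0.05 (5.88%, beside 8.33%). At 144 h 28 of the 34 genes were lower with siRNA 3 than with siRNA 2 (82.4%, beside 66.4% of all genes), with a median difference of −0.28, beside −0.10 for all genes. All 9 fatty acid genes had a lower mean with siRNA 3, from −0.07 for ACLY to −0.69 for ELOVL6 (adjusted p = 0.226). Part of this rested on 1 library, siRNA 3 replicate 2, which had the highest share of ERCC controls. Without it, an alternative chosen after the data were seen in which the lone siRNA 3 library is assumed to vary like the other groups, 25 of the 34 genes were lower (73.5%, beside 61.4% of all genes), the median difference was −0.16 (beside −0.07 for all genes) and 6 had an unadjusted p under 0.05 (17.6%, beside 7.71%). Of the fatty acid genes 7 of 9 were then lower, with ACLY at 0.04, SCD at 0.01, FADS2 at −0.08 and ELOVL6 at −0.46 (adjusted p = 0.719). Without siRNA 2 replicate 2, 7 of the 34 genes had an unadjusted p under 0.05 (20.6%, beside 8.81%). The difference was −0.58 for SREBF2 (adjusted p = 0.183), −0.55 for TM7SF2 (adjusted p = 0.307) and 0.45 for MSMO1 (adjusted p = 0.196). SC5D and INSIG2 differed by −0.05 and 0.01.

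Each siRNA was also set against the same si-NT libraries. With siRNA 2, 10 of the 34 genes passed at 144 h (7 higher and 3 lower, 21.3% of all genes passing), and with siRNA 3, 11 passed (3 higher and 8 lower, 20.2% of all genes passing). TM7SF2 rose by 1.53 with siRNA 2 and by 0.98 with siRNA 3, SC5D by 0.81 and 0.76, and INSIG2 by 0.86 and 0.87. ELOVL6 was at −0.94 and −1.63, ME1 at −0.69 and −1.08 and INSIG1 at −0.55 and −0.88. FADS1 and FADS2 were at −0.24 and −0.37 with siRNA 2 (adjusted p = 0.359 and 0.197) and fell by 0.73 and 0.70 with siRNA 3 (adjusted p = 0.0179 and 0.0302). MVD rose by 0.51 with siRNA 2 (adjusted p = 0.0165) and was at 0.22 with siRNA 3 (adjusted p = 0.227). FDPS was at −0.235 with siRNA 2 (adjusted p = 0.259) and fell by 0.71 with siRNA 3 (adjusted p = 0.0092). These comparisons share their control libraries. Without siRNA 3 replicate 2 the number that passed with siRNA 3 was 5 (4 lower and 1 higher, beside 4.96% of all genes), and FADS1 and FADS2 were at −0.46 and −0.45 (adjusted p = 0.111 and 0.204). The number with siRNA 3 was also lower without either si-NT library of 144 h, and so was the share of all genes. That with siRNA 2 was lower without either si-NT library or either siRNA 2 library of 144 h. The share of all genes with siRNA 2 was not computed for these fits.

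**Figure D5:**
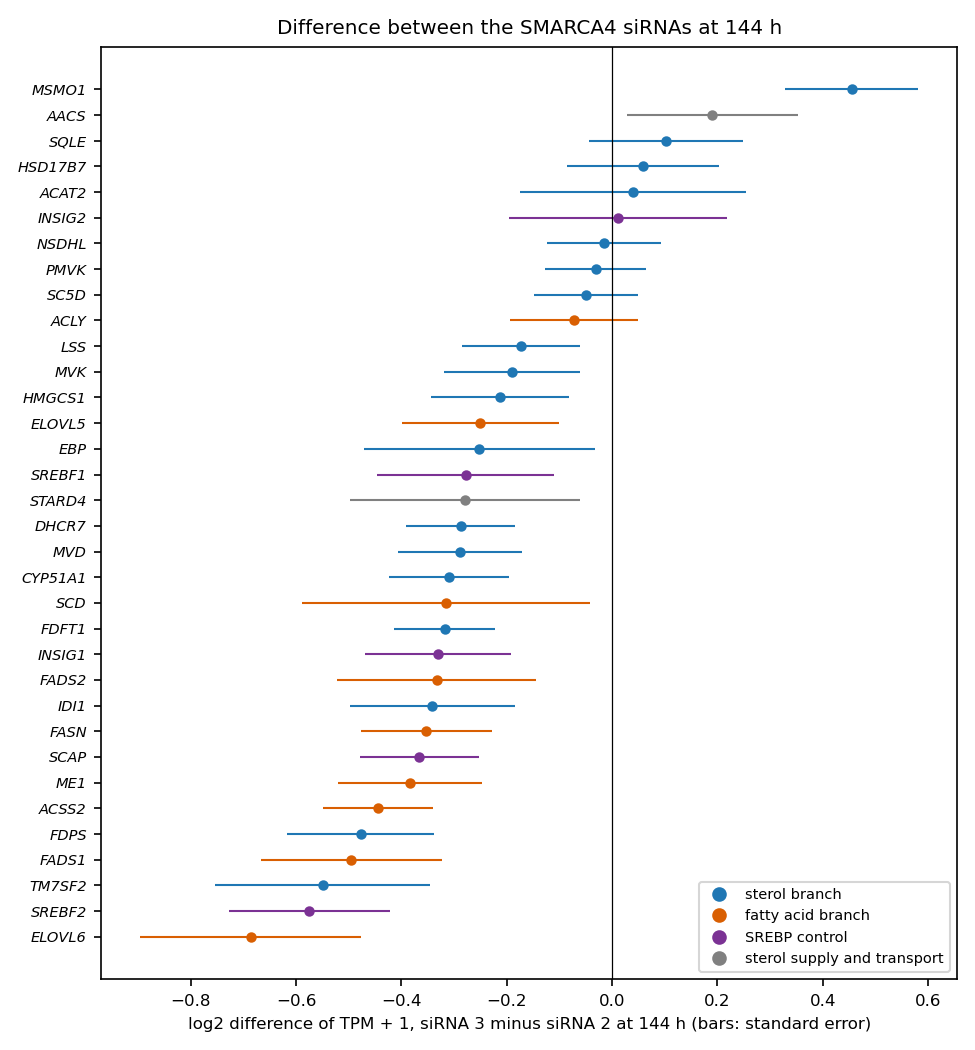
Log2 difference (TPM + 1) between siRNA 3 and siRNA 2 at 144 h for the 34 genes, coloured by branch, with bars for the standard error. Points left of 0 (28 of 34) were lower with siRNA 3, and ELOVL6 (−0.69) and MSMO1 (0.45) are at the ends.

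Other genes of sterol and lipid metabolism were read from lists drawn up by role. The counts in these lists stand beside 24.4% of all genes tested called at 144 h (13.6% higher and 10.8% lower) and 1.68% at 72 h. Among 11 genes of sterol efflux, esterification and trafficking 3 rose and 1 fell at 144 h, and 1 rose at 72 h. That gene was NPC1, which exports cholesterol from lysosomes. NPC1 was at 46.8 and 45.2 TPM in the si-NT cells at 72 h and at 144, 152, 117 and 118 TPM in the BRG1 depleted cells. At 144 h NPC1 was at 41.7 and 49.9 TPM in the si-NT cells and at 260, 218, 194 and 206 TPM in the BRG1 depleted cells. No BRG1 depleted library came near the controls, and the change of NPC1 was 2.89-fold at 72 h (log2 1.50 ± 0.14, adjusted p = 0.000949) and 4.79-fold at 144 h (log2 2.23 ± 0.14, adjusted p = 1.01e-05). Both calls of NPC1 held without any 1 library. ABCG1, a cholesterol exporter, and SOAT1, which esterifies cholesterol, rose by 0.81 (adjusted p = 0.0396) and 0.61 (adjusted p = 0.0438). The gene that fell was SCARB1, a receptor that takes up cholesterol from lipoproteins (−0.42, adjusted p = 0.0422), which was named after its value was seen.

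Among 10 further genes of SREBP processing and sterol sensing, 1 rose and 2 fell at 144 h, beside 24.4% of all genes called. RNF145, a ubiquitin ligase, fell by 0.79 (adjusted p = 0.0229), and TMEM97, a sterol-binding membrane protein, fell by 0.68 (adjusted p = 0.00624). Of 10 genes for non-sterol products of mevalonate 3 rose and 1 fell, PDSS1 of coenzyme Q synthesis by 0.81 (adjusted p = 0.0294), while GGPS1, which makes geranylgeranyl diphosphate, rose by 0.48 (adjusted p = 0.0105) and FNTA, a farnesyltransferase subunit, by 0.37 (adjusted p = 0.0357). The median log2 fold changes of these lists at 144 h were −0.16 and −0.14, and that of the efflux list was 0.23.

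On the fatty acid side, 2 of 12 genes of triglyceride and phospholipid assembly rose and 1 fell at 144 h, beside 24.4% of all genes called. THRSP, a promoter of lipogenesis, fell by 1.21 on the log2 scale (adjusted p = 0.00187), while the acyltransferases AGPAT2 and LPCAT3 rose by 0.80 (adjusted p = 0.00502) and 0.75 (adjusted p = 0.00812). Of 12 other genes of elongation and fatty acid synthesis 1 rose and 2 fell, HSD17B12, a ketoacyl reductase of elongation, by 0.45 (adjusted p = 0.0218) and the mitochondrial synthase OXSM by 0.41 (adjusted p = 0.0229), while MLXIP, a glucose-responsive transcription factor, rose by 0.40 (adjusted p = 0.0271). Of 12 genes of fatty acid oxidation 3 rose and 2 fell at 144 h and 1, ACAA2, rose at 72 h (0.49, adjusted p = 0.0343). The largest fall was in ACADL, an acyl-CoA dehydrogenase (−1.93, adjusted p = 0.00135), beside PPARGC1A, a coactivator (−0.90, adjusted p = 0.00531), and CPT1A, which brings fatty acids into mitochondria, rose by 0.40 (adjusted p = 0.0485). The medians of these lists at 144 h lay between −0.09 and 0.14.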

How the data were processed

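The authors mapped reads of a stranded poly(A) library kit to hg19/GRCh37 with STAR (2.4.0j per the labels, beside Trim Galore 0.11.2 and FastQC), counted them into genes with featureCounts and used ERCC spike-ins for normalisation. They deposited TPM, a length-corrected share of all transcripts, on GENCODE v19, 1 column per library with 2 decimals, and each column summed to 999999 to 1000001 with the 92 ERCC rows included. The tool that made the TPM is not given in the sources used here.

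Here the ERCC rows were set aside, and the 16337 of 63568 genes that reached 1 TPM in 2 or more libraries were analysed as log2(TPM + 1), a scale that understates the change of low genes. limma 3.58.1 in R 4.3.3 (lmFit and eBayes with a mean trend) was fitted to all 12 libraries in 4 groups, since 2 controls per time give little spread of their own, with Benjamini-Hochberg adjustment over all genes tested and calls at 0.05. A model with 6 groups gave the siRNA contrasts. TPM are not counts, so the count test of the study's methods was not used. The tests are two-sided, SE is the standard error of the fit, and SD is over the TPM of a group. Symbols came from a table of Ensembl identifiers, which named 55665 of the genes. The fit was tested on simulated data. The alternatives were other pseudocounts, filters, scalings, thresholds and groupings, a replicate block and leaving out each library. All 34 genes are accounted for, with full statistics for called genes and for SREBF1, SREBF2, SCAP, INSIG1, INSIG2, HMGCS1, SQLE, FASN and SCD, and at most 3 called genes per further list. The values of 1 called gene of SREBP processing and sterol sensing are not reported here. The members, the lists and the promoters shown were chosen with earlier results of these data known. Printing promoters was first tied to a called gene with a sterol element core, and none of the 30 genes with a promoter window met that. Gene positions and exon overlaps are from GENCODE 44 lifted to GRCh37. Promoters are from RefSeq on GRCh38.p14.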

Additional observations from a re-analysis of the deposited data

Results flagged for a closer look

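In each BRG1 depleted group of 4 libraries the highest and the lowest value of every gene were compared with the nearest other library. Of 68 groups checked, 7 had a library set apart beyond the 95% critical value of Dixon's test. Chance gives about 1 in 20 only for independent groups of like libraries. These groups mix both siRNAs and the genes share libraries, so that rate is no yardstick here. Of these 7, 5 were high values of siRNA 2 replicate 2 at 72 h. There SCD was at 367.37 TPM (others 207.60 to 226.85), FADS2 at 575.32 TPM (others 419.57 to 443.95), FADS1 at 49.83 TPM (others 40.53 to 40.68), INSIG2 at 43.99 TPM (others 31.78 to 33.15) and HSD17B7 at 29.45 TPM (others 26.10 to 26.59). The same library was the BRG1 depleted library of 72 h whose distance between the fatty acid and the sterol branch (1.32) lay in the range of the controls, and its mean log2(TPM + 1) over all genes was the highest of the 12 libraries (3.82). The other values were low ones of siRNA 3 replicate 2, with SCD at 171.82 TPM at 144 h (others 264.85 to 273.15) and ELOVL6 at 26.08 TPM at 72 h (others 34.02 to 34.69). The library of siRNA 3 replicate 2 at 144 h had the lowest mean over all genes (3.66) and the highest ERCC share (1.97%). The part of these properties in the values was not tested.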

How the results depend on the processing

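SC5D and ME1 kept their calls at 144 h in all 12 fits that each left out 1 library, as did NPC1 outside the list of 34 genes. The number of genes called at 144 h ran from 2 to 13 over these fits, against 11 with all libraries, and at 72 h from 0 to 1, against 1. Calls over all genes at 144 h also fell without either si-NT library of that time. Over the 12 fits the sterol branch median at 144 h ran from −0.10 to 0.14. That of the fatty acid branch ran from −0.47 to −0.22, and the distance between the branch medians from 0.13 to 0.61. Without TM7SF2 and ELOVL6, an alternative added after the data were seen, the distance was 0.16. In the siRNA comparisons at 144 h, an alternative added after the data were seen, leaving out 1 library of that time gave 25 to 28 genes lower with siRNA 3 than with siRNA 2 (7 to 9 of the fatty acid branch), 3 to 11 called with siRNA 2 and 5 to 10 called with siRNA 3. Each time had only 2 control libraries, and the TPM values hold no read depth, so no counting error can be given.

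At 72 h the number of genes called was 2 with median-of-ratios scaling, 0 with ERCC scaling, 0 with only the 6 libraries of that time, 3 against the si-NT libraries of both times together, 0 at an adjusted p under 0.01 and 0 with a log2 fold change beyond 1.5. Of all 16337 genes tested, median-of-ratios scaling called 285 and ERCC scaling 32 at 72 h. The 6 libraries of that time gave 18 and the combined si-NT libraries 1206, against 275 in the main fit. At 144 h it was 2 with ERCC scaling, where 752 of all genes tested were called, against 3983 in the main fit. It was 6 at an adjusted p under 0.01 and 0 with a log2 fold change beyond 1.5. Under the other settings it stayed between 8 and 15. The lowest was with only the 6 libraries of that time (3613 of 16337 genes called). The highest was with 6 groups (4439 called) and against the si-NT libraries of both times together (5022 called). With 6 groups the call of NSDHL was lost (limma, adjusted p = 0.0524). With ERCC scaling, under which all genes had a median of −0.11 (72 h) and −0.31 (144 h), the branch medians were −0.01 and −0.39 for sterols and −0.17 and −0.80 for fatty acids. The cause of these shifts was not tested. No gene of the list differed between the time points under any setting that gave this contrast, which could not be fitted with the libraries of 1 time.

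The same replicate number did not mark libraries that deviated together, with correlations of the deviations from −0.23 to 0.30 and 2 of 15 over 0.1. With a replicate block 1 gene was called at 72 h and 10 at 144 h (6 higher and 4 lower), NSDHL being the call that was lost.

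Genes near 0 that did not pass the test changed sign under several settings. The log2 fold change took the other sign with median-of-ratios scaling for MVD (−0.0085), MSMO1 (−0.0055) and FADS1 (−0.050) at 72 h and for ACLY (−0.018) and FASN (−0.0036) at 144 h. It did so with quantile normalisation for MVD (−0.0039) and FADS1 (−0.017) at 72 h and for ACLY (−0.010) at 144 h. The sign also turned with ERCC scaling, relative to the median of all genes for MVD (−0.013), MSMO1 (−0.011) and FADS1 (−0.057) at 72 h and for IDI1 (−0.033), SREBF2 (−0.021), ACLY (−0.074), FASN (−0.063) and SCD (−0.022) at 144 h. The sign also turned against the si-NT libraries of both times together for MSMO1 (−0.053), INSIG2 (0.034) and FADS1 (−0.094) at 72 h and for SQLE (0.080), CYP51A1 (0.090), MSMO1 (0.051), DHCR7 (0.040) and ACLY (−0.0035) at 144 h. Median-of-ratios and ERCC scaling move the genes of a library nearly alike, so a turn of sign under them says only that a value lay close to 0. Over the fits that left out 1 library the sign was not fixed for 12 genes: at 72 h ACAT2 from −0.027 to 0.64, MVD from −0.030 to 0.15, IDI1 from −0.096 to 0.37, FDPS from −0.23 to 0.11, SQLE from −0.0032 to 0.36, MSMO1 from −0.047 to 0.19, EBP from −0.42 to 0.24, SREBF2 from −0.037 to 0.26, SCAP from −0.082 to 0.0057, SCD from −0.053 to 0.33, ELOVL6 from −0.22 to 0.071 and FADS1 from −0.065 to 0.11. The same held for 10 genes: at 144 h IDI1 from −0.12 to 0.22, SQLE from −0.17 to 0.079, CYP51A1 from −0.11 to 0.047, MSMO1 from −0.17 to 0.034, DHCR7 from −0.15 to 0.0081, SREBF2 from −0.041 to 0.20, SCAP from −0.16 to 0.013, ACLY from −0.013 to 0.064, FASN from −0.081 to 0.12 and SCD from −0.045 to 0.23. None of these genes was called at that time.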
